A study of Bos taurus with 12 samples.

Results

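The genes described here are 45 heat shock proteins, their co-chaperones, the cytosolic chaperonin subunits and 2 heat shock transcription factors, measured in bovine skeletal muscle. A gene was taken as a member when the name, gene number, accession or description that the array's scanner files give for a probe led to its symbol, and the probe of highest mean signal over all arrays stood for it. All 45 genes had a probe, 49 probes in all, and 44 passed the filter on dim probes, out of 13671 genes tested. The exception was HSF1, whose probe was well above background on 2 of the 12 arrays. The set is named for the cytosol, but HSPA9, HSPD1 and HSPE1 encode chaperones of the mitochondrial matrix.

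Messenger RNA was measured with 1-colour Agilent arrays in the biceps brachii of 12 male cattle aged 18 to 20 months, with 4 animals in each of 3 groups and 1 array per animal. Control bulls were untreated. Bulls given dexamethasone, a synthetic glucocorticoid, received 0.75 mg per head in feed for 42 days. Bulls given the combination received 0.66 mg of dexamethasone per head for 21 days together with clenbuterol, a beta-adrenergic agonist, over 28 days, the feed holding 2 mg per animal at first, 4 mg from the second week and 6 mg from the third week on. Dexamethasone itself was therefore given at a lower dose and for fewer days in the combination, and no group received clenbuterol alone. The 12 animals were picked out of 24, 8 per group, for the best RNA.

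Chaperones bind unfolded protein and let it fold. HSP70 proteins do so in cycles of ATP hydrolysis that HSP40 proteins start and HSP110 proteins reset, and they pass some clients, steroid hormone receptors among them, to HSP90 through adaptor proteins. Small heat shock proteins hold unfolding protein without ATP and are abundant in muscle, where several sit at the Z-disc, while the chaperonins fold protein inside a closed chamber. When unfolded protein builds up, heat shock factors raise transcription of the inducible members.

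Values are log2 signals relative to the 75th percentile of the same array, so that 0 is the 75th percentile and 1 unit is a doubling. Each group of arrays held 4 animals, and this number limits the precision. Of the spots on an array, 53.2% to 68.7% were well above background. The mean correlation over genes was 0.9799 between arrays of the same group and 0.9773 between groups, and no pair exceeded 0.9885. Of the 44 members, 42 were well above background on every array. Skeletal muscle markers, with myoglobin (MB), MYH1 and ATP2A1 at the highest signals, were measured for all 12 listed genes and had a median log2 change of -0.01 with dexamethasone and 0.04 with the combination. The file headers place control replicates 1 to 3 on scan day 1, control replicate 4, dexamethasone replicates 1 to 3 and combination replicates 1 to 3 on day 2, and the fourth array of either treatment on a day of its own, so scan day overlaps largely with group. By the slide given in the headers, control replicate 4 and dexamethasone replicates 1 to 3 shared a slide. By the same headers, no combination array shared a slide with another group. For dexamethasone replicate 4 the code in the sample label names another slide than the header, and the header's slide was used. Results within scan days are given further on.

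The first question was what dexamethasone alone did to these genes. Their log2 change against control was above 0 for 42 of the 44 members, with a median of 0.37, against 54.6% of all genes tested and a median of 0.03. None of the 44 was called at a limma adjusted p under 0.05, where 0.614% of all genes were called and 0.0293% were called higher. At an unadjusted p under 0.05, 12 members were higher and 0 lower, against 5.46% and 6.88% of all genes. The 4 treated values lay above all 4 control values for 6 members (HSPA4, HSP90AA1, HSPB6, DNAJA1, AHSA1 and CCT3), as they did for 2.52% of all genes. Members were chosen with earlier results of these data known, so these counts describe the genes and carry no test of the set.

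The second question was what the combination did. The log2 change against the same control arrays was above 0 for 40 of the 44 members, with a median of 0.51, against 53.8% of all genes and a median of 0.03. Limma called 1 member, DNAJA1, which rose, where 0.0439% of all genes (6 of 13671) were called and 0.0146% were called higher. At an unadjusted p under 0.05, 24 members were higher and 0 lower, against 6.97% and 5.15% of all genes. For 14 members the 4 combination values lay above all 4 control values, against 4.51% of all genes. Ranked by p over all genes, 4 members stood among the first 20 and 9 among the first 100. Log2 changes ran from -0.41 for ST13 to 2.57 for DNAJB1, and the latter was 1.76 without combination replicate 3.

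**Figure D1:**
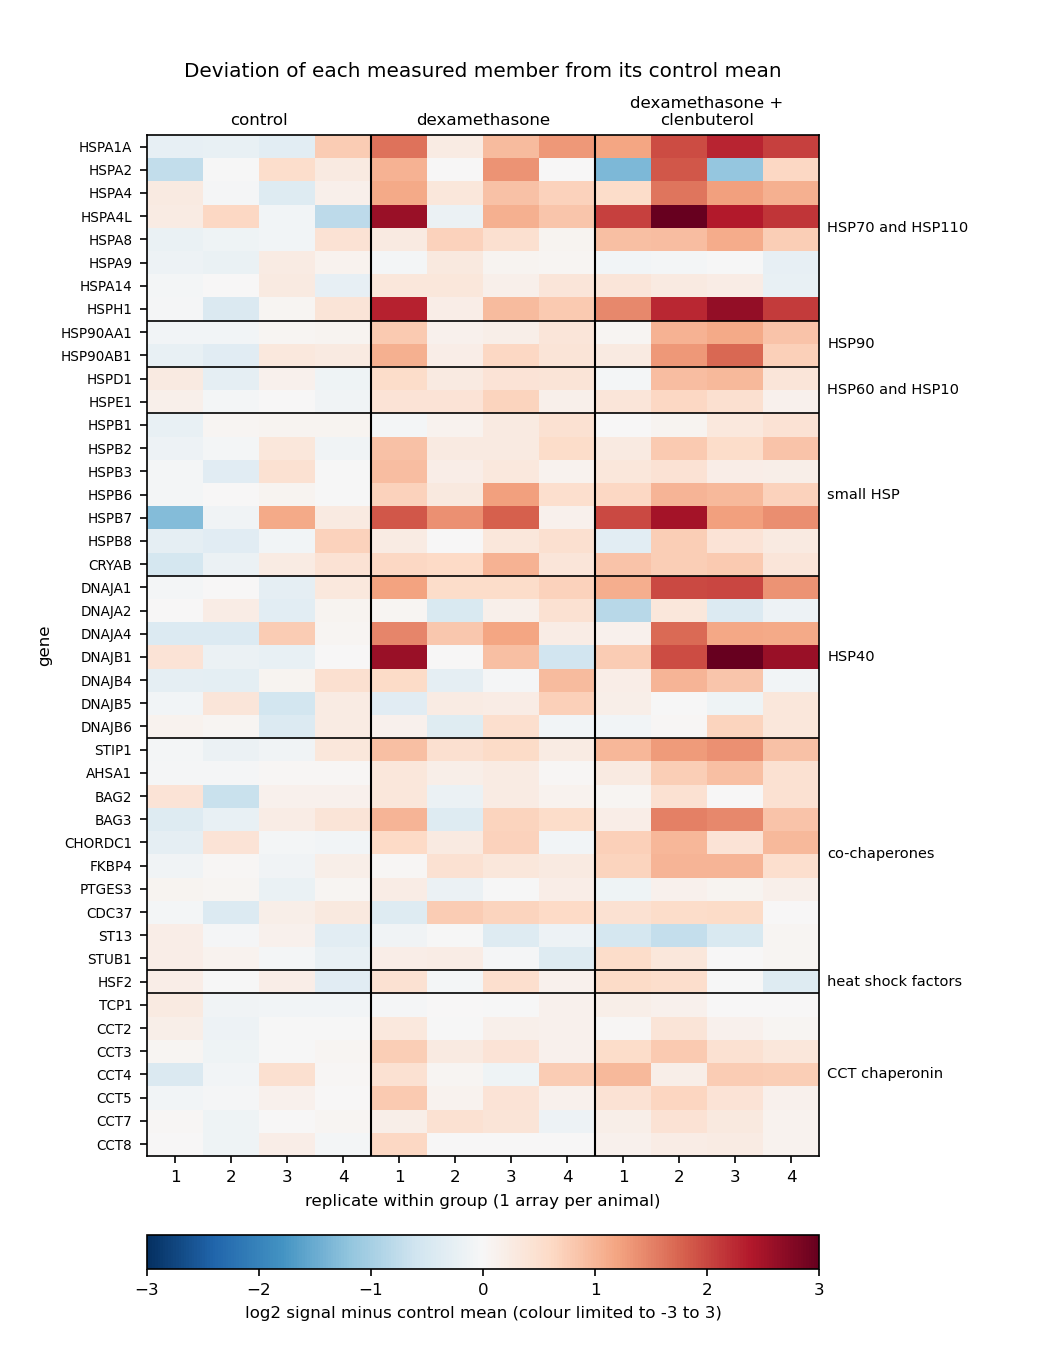
Colour shows, for each of the 44 measured members (rows, by subgroup) and each of the 12 arrays (columns, by group), the log2 signal minus the mean of the 4 control arrays. HSPA1A, HSPA4L, HSPH1, DNAJA1, DNAJB1 and HSPB7 lie above their control mean in all 4 combination arrays, with log2 changes of 1.60 to 2.57, while TCP1, PTGES3 and HSPA9 have log2 changes between -0.10 and 0.08 there.

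The subgroups were not alike in size of change, though differences between subgroups were not tested. In the combination the median log2 change was 1.01 for the 8 HSP70 and HSP110 genes, 0.89 for the 2 HSP90 genes, 0.62 for the 7 small heat shock proteins, 0.49 for the 7 HSP40 genes, 0.49 for the 10 co-chaperones, 0.47 for HSPD1 and HSPE1, and 0.26 for the 7 chaperonin subunits. With dexamethasone alone the medians were 0.68, 0.47, 0.49, 0.30, 0.24, 0.40 and 0.22 in the same order. The medians of the 2 treated groups were closest for the chaperonin subunits, for HSPD1 and HSPE1, and for the small heat shock proteins. Those of the HSP70, HSP90, HSP40 and co-chaperone genes were further apart.

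Among the HSP70 genes, HSPA1A is the stress-inducible form and HSPA8 its constitutive relative. The HSPA1A probe, named through its human match, read 6.15, 6.17, 6.07 and 7.15 in the controls, 8.01, 6.63, 7.34 and 7.69 with dexamethasone, and 7.58, 8.35, 8.68 and 8.45 with the combination. All combination values were above all control values, and control replicate 4 lay nearly 1 unit above the other controls. The log2 change was 1.88 ± 0.34 (SE) in the combination (3.68-fold, limma adjusted p = 0.123) and 1.03 ± 0.34 with dexamethasone (2.04-fold, limma adjusted p = 0.23), and neither passed. A second probe, which the file names for the near-identical copy HSPA1B, gave log2 changes of 2.72 and 1.1. Which copy each probe reads cannot be told from its name, so the values stand for the pair. A further, dim probe is the one that the file itself names HSPA1A. It was well above background on 0 of 4 control, 1 of 4 dexamethasone and 3 of 4 combination arrays. Its values were -7.66, -6.94, -7.99 and -5.84 in the controls and -3.31, -3.13, 0.09 and -7.54 with the combination. Replicate 4 of the combination thus lay among the controls, and the lower bound on the fold over control, 7.71, was 3.38 without replicate 3.

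HSPA8 read 4.70, 4.79, 4.82 and 5.34 in the controls, 5.18, 5.60, 5.38 and 5.0 with dexamethasone, and 5.82, 5.84, 6.03 and 5.64 with the combination. Here the combination values lay above every value of both other groups, while dexamethasone and control overlapped. The log2 change against control was 0.92 ± 0.19 in the combination (1.89-fold, limma adjusted p = 0.141) and 0.38 ± 0.19 with dexamethasone (limma adjusted p = 0.44). As for HSPA1A, the highest control was replicate 4, the control scanned on day 2.

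The HSP110 genes act as nucleotide exchange factors of HSP70. HSPH1 read 3.04, 2.63, 3.14 and 3.46 in the controls, 5.37, 3.28, 4.01 and 3.86 with dexamethasone, and 4.50, 5.32, 5.71 and 5.17 with the combination. Combination and control did not overlap, and dexamethasone replicate 1 stood more than 1 unit above the rest of its group. The log2 change was 2.10 ± 0.39 in the combination (4.30-fold, limma adjusted p = 0.123) and 1.06 ± 0.39 with dexamethasone (limma adjusted p = 0.295). HSPA4 had log2 changes of 1.11 ± 0.25 in the combination (limma adjusted p = 0.165) and 0.76 ± 0.25 with dexamethasone (limma adjusted p = 0.222), and its 8 treated values all lay above its 4 control values.

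HSPA4L, a further HSP110 gene, read -5.22, -4.85, -5.55 and -6.26 in the controls, -2.89, -5.65, -4.40 and -4.64 with dexamethasone, and -3.41, -2.38, -3.08 and -3.32 with the combination. Its signal was low, well above background on 3 of 4 control, 3 of 4 dexamethasone and 4 of 4 combination arrays. The log2 change in the combination was 2.42 ± 0.49 (limma adjusted p = 0.141), and 0.86 with the normexp background correction, so its size depends on how background was removed. Among the remaining HSP70 members, HSPA14, a ribosome-associated HSP70, had a log2 change of 0.16 ± 0.17 in the combination, HSPA9, the mitochondrial HSP70, of -0.10 ± 0.15, and HSPA2, best known from the testis, of -0.01 ± 0.63 with combination values from -1.05 to 2.15.

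HSP40 proteins deliver clients to HSP70 and start its ATP hydrolysis. DNAJA1, the one member that passed the test, read 1.51, 1.59, 1.31 and 1.89 in the controls, 2.78, 2.12, 2.12 and 2.25 with dexamethasone, and 2.67, 3.54, 3.57 and 2.92 with the combination. Every treated value lay above every control value, and the lowest combination value was below the highest dexamethasone value. DNAJA1 rose 3.04-fold in the combination (log2 change 1.60 ± 0.24, 95% interval 1.08 to 2.12, limma adjusted p = 0.0481), and had a log2 change of 0.74 ± 0.24 with dexamethasone (limma adjusted p = 0.216). The call sits close to the threshold: its adjusted p went above 0.05 when any 1 array other than dexamethasone replicate 1 was left out, to between 0.053 and 0.219, with log2 changes between 1.47 and 1.77. Of the other settings tried, normexp background correction kept the adjusted p under 0.05 (0.0247), and the rest put it above. With scan day 2 against the other days as a block, the log2 change was 1.46 ± 0.26 (limma adjusted p = 0.209).

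DNAJB1, the stress-inducible HSP40, read 1.1, 0.52, 0.47 and 0.70 in the controls, 3.30, 0.70, 1.60 and 0.12 with dexamethasone, and 1.45, 2.65, 5.70 and 3.28 with the combination. The treated animals of each group differed widely, with SDs of 1.39 and 1.79 against 0.29 in the controls, and the combination did not overlap control. Its log2 change was 2.57 ± 0.81 in the combination (5.95-fold, limma adjusted p = 0.268) and 0.73 ± 0.81 with dexamethasone (limma adjusted p = 0.774). With 1 array left out, the first ran from 1.76 (without combination replicate 3) to 3.18 (without combination replicate 1), and the second was 0.11 without dexamethasone replicate 1. DNAJA4 read 4.06, 4.08, 5.25 and 4.55 in the controls, 5.94, 5.29, 5.66 and 4.71 with dexamethasone, and 4.61, 6.18, 5.64 and 5.61 with the combination, overlapping in each comparison. Its log2 changes were 1.02 ± 0.37 in the combination (limma adjusted p = 0.326) and 0.92 ± 0.37 with dexamethasone (limma adjusted p = 0.338). DNAJA2, DNAJB4, DNAJB5 and DNAJB6, the other HSP40 genes, had log2 changes between -0.27 and 0.49 in the combination and between 0.05 and 0.30 with dexamethasone.

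HSP90 keeps kinases and steroid receptors in a form that can be activated. HSP90AA1, the inducible form, read 5.70, 5.69, 5.85 and 5.87 in the controls, 6.57, 5.92, 5.96 and 6.15 with dexamethasone, and 5.84, 6.83, 6.91 and 6.63 with the combination. The dexamethasone values were all above control, while combination replicate 1 lay among the controls. Log2 changes were 0.78 ± 0.23 in the combination (limma adjusted p = 0.256) and 0.37 ± 0.23 with dexamethasone (limma adjusted p = 0.561). HSP90AB1, the constitutive form, was read by a probe named through its human match and had log2 changes of 1.0 ± 0.31 (limma adjusted p = 0.265) and 0.57 ± 0.31 (limma adjusted p = 0.492). Its values ran from -3.14 to -2.5 in the controls, from -2.61 to -1.74 with dexamethasone and from -2.55 to -1.08 with the combination, so that control overlapped with both. The HSP90AB1 signal was low, with a control mean of -2.81 against 5.78 for HSP90AA1. It had 1 probe, so the HSP90 median rests in part on a low signal.

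**Figure D2:**
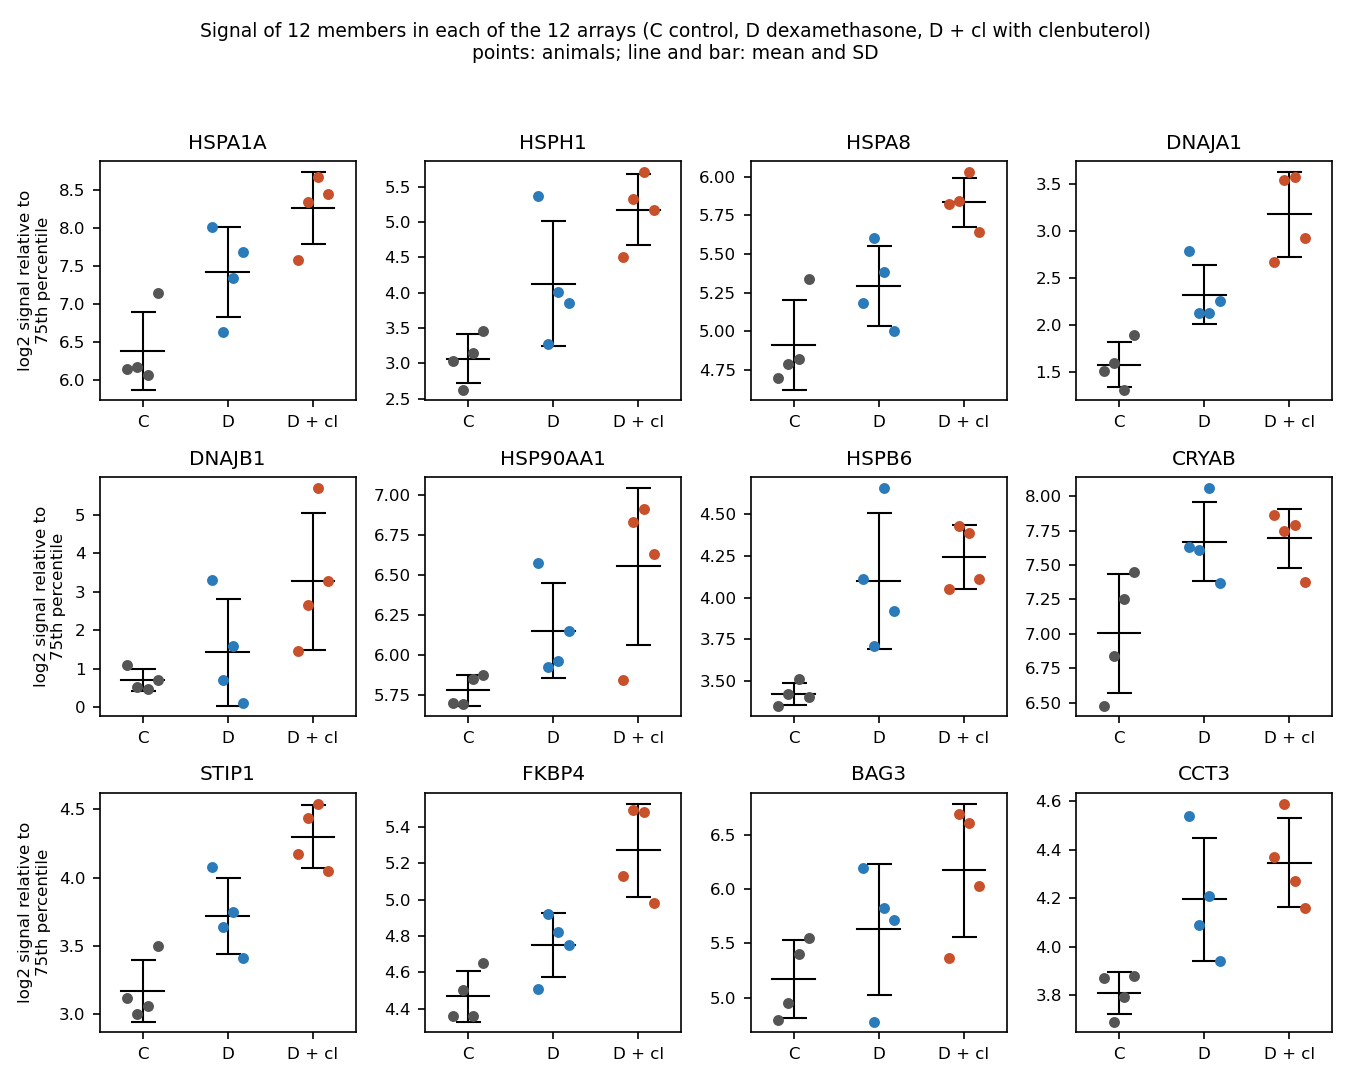
Each panel shows 1 member, with the log2 signal relative to the array's 75th percentile on the vertical axis, a point per animal, and the mean and SD of each group as a line and bar. DNAJA1, HSPB6 and CCT3 have no treated value within the control range, and for HSPA8 and FKBP4 the combination lies above both other groups.

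Of the 10 co-chaperones, 9 had a log2 change above 0 in the combination, against 53.8% of all genes, and 5 of them were higher at an unadjusted p under 0.05, against 6.97% of all genes. STIP1 (HOP), the adaptor that joins HSP70 to HSP90, read 3.12, 3.0, 3.06 and 3.5 in the controls, 4.08, 3.64, 3.75 and 3.41 with dexamethasone, and 4.17, 4.44, 4.54 and 4.05 with the combination. Its combination values lay above all control values and above 3 of the 4 dexamethasone values. The log2 change was 1.13 ± 0.19 in the combination (2.19-fold, limma adjusted p = 0.101) and 0.55 ± 0.19 with dexamethasone (limma adjusted p = 0.243). FKBP4, an immunophilin found with HSP90 on steroid receptors, had a log2 change of 0.80 ± 0.16 in the combination (limma adjusted p = 0.141) and 0.28 ± 0.16 with dexamethasone (limma adjusted p = 0.525). Its 4 combination values, from 4.98 to 5.49, lay above every dexamethasone value (4.51 to 4.92) and every control value (4.36 to 4.65).

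BAG3, which couples HSP70 and HSPB8 to autophagy in muscle, read 4.79, 4.95, 5.40 and 5.55 in the controls, 6.20, 4.78, 5.83 and 5.72 with dexamethasone, and 5.37, 6.69, 6.61 and 6.03 with the combination. The groups overlapped, and the log2 changes were 1.0 ± 0.35 (limma adjusted p = 0.309) and 0.46 ± 0.35 (limma adjusted p = 0.644). AHSA1, which stimulates the ATPase of HSP90, and CHORDC1, an HSP90 co-chaperone, had log2 changes of 0.59 ± 0.16 and 0.77 ± 0.22 in the combination (limma adjusted p = 0.213 and 0.238). PTGES3 (p23), which binds the closed form of HSP90, had log2 changes of 0.07 ± 0.15 in the combination (95% interval -0.25 to 0.39) and 0.06 ± 0.15 with dexamethasone. CDC37, the kinase adaptor of HSP90, had log2 changes of 0.40 ± 0.26 and 0.41 ± 0.26, at a low signal, and BAG2, a cofactor of HSP70, of 0.24 ± 0.23 and 0.13 ± 0.23.

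ST13 (HIP), which steadies the client-bound form of HSP70, was the member with the lowest log2 change in both treated groups, -0.41 ± 0.19 in the combination (95% interval -0.82 to 0.01, limma adjusted p = 0.417) and -0.16 ± 0.19 with dexamethasone. The groups overlapped, at 1.29 to 1.80 in the controls and 0.89 to 1.66 with the combination. STUB1 (CHIP), a ubiquitin ligase that acts on HSP70 and HSP90 clients, had a log2 change of 0.24 ± 0.19 in the combination. That value has a limit, since the brighter of the 2 probes with this gene number is described in the file as a different human transcript, and the other was well above background on 3 arrays.

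All 7 small heat shock proteins had log2 changes above 0 in both treated groups. HSPB6 (HSP20) read 3.35, 3.42, 3.51 and 3.40 in the controls, 4.11, 3.71, 4.66 and 3.92 with dexamethasone, and 4.05, 4.43, 4.39 and 4.11 with the combination. All 8 treated values lay above the controls, which spanned less than 0.2 units. Its log2 changes were 0.68 ± 0.20 with dexamethasone (1.60-fold, limma adjusted p = 0.164, the smallest of the members in that comparison) and 0.83 ± 0.20 with the combination (1.77-fold, limma adjusted p = 0.182). HSPB7, the cardiovascular small heat shock protein, read -1.30, -0.09, 1.15 and 0.27 in the controls, 1.87, 1.37, 1.81 and 0.13 with dexamethasone, and 1.98, 2.5, 1.23 and 1.41 with the combination. The controls were widely spread and overlapped with dexamethasone but not with the combination, and the log2 changes were 1.29 ± 0.51 (limma adjusted p = 0.32) and 1.77 ± 0.51 (limma adjusted p = 0.242).

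CRYAB (alpha-B-crystallin), which binds desmin and titin, read 6.48, 6.84, 7.25 and 7.45 in the controls, 7.63, 7.61, 8.06 and 7.37 with dexamethasone, and 7.86, 7.75, 7.79 and 7.38 with the combination. In both comparisons 1 treated value was below the highest control, and the log2 changes were nearly the same, 0.66 ± 0.23 with dexamethasone (limma adjusted p = 0.249) and 0.69 ± 0.23 with the combination (limma adjusted p = 0.28). HSPB2, the gene next to CRYAB in the RefSeq annotation, had log2 changes of 0.49 ± 0.19 and 0.62 ± 0.19. HSPB1 (HSP27), with values from 8.15 to 8.83 over all 12 arrays, had log2 changes of 0.19 ± 0.16 (95% interval -0.16 to 0.55) and 0.21 ± 0.16 (95% interval -0.15 to 0.56). HSPB3 and HSPB8 had log2 changes of 0.29 ± 0.21 and 0.28 ± 0.27 in the combination. Within scan day 2, the log2 difference of HSPB8 from control was -0.49 with dexamethasone and -0.41 with the combination, the opposite sign, against the single control of that day.

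**Figure D3:**
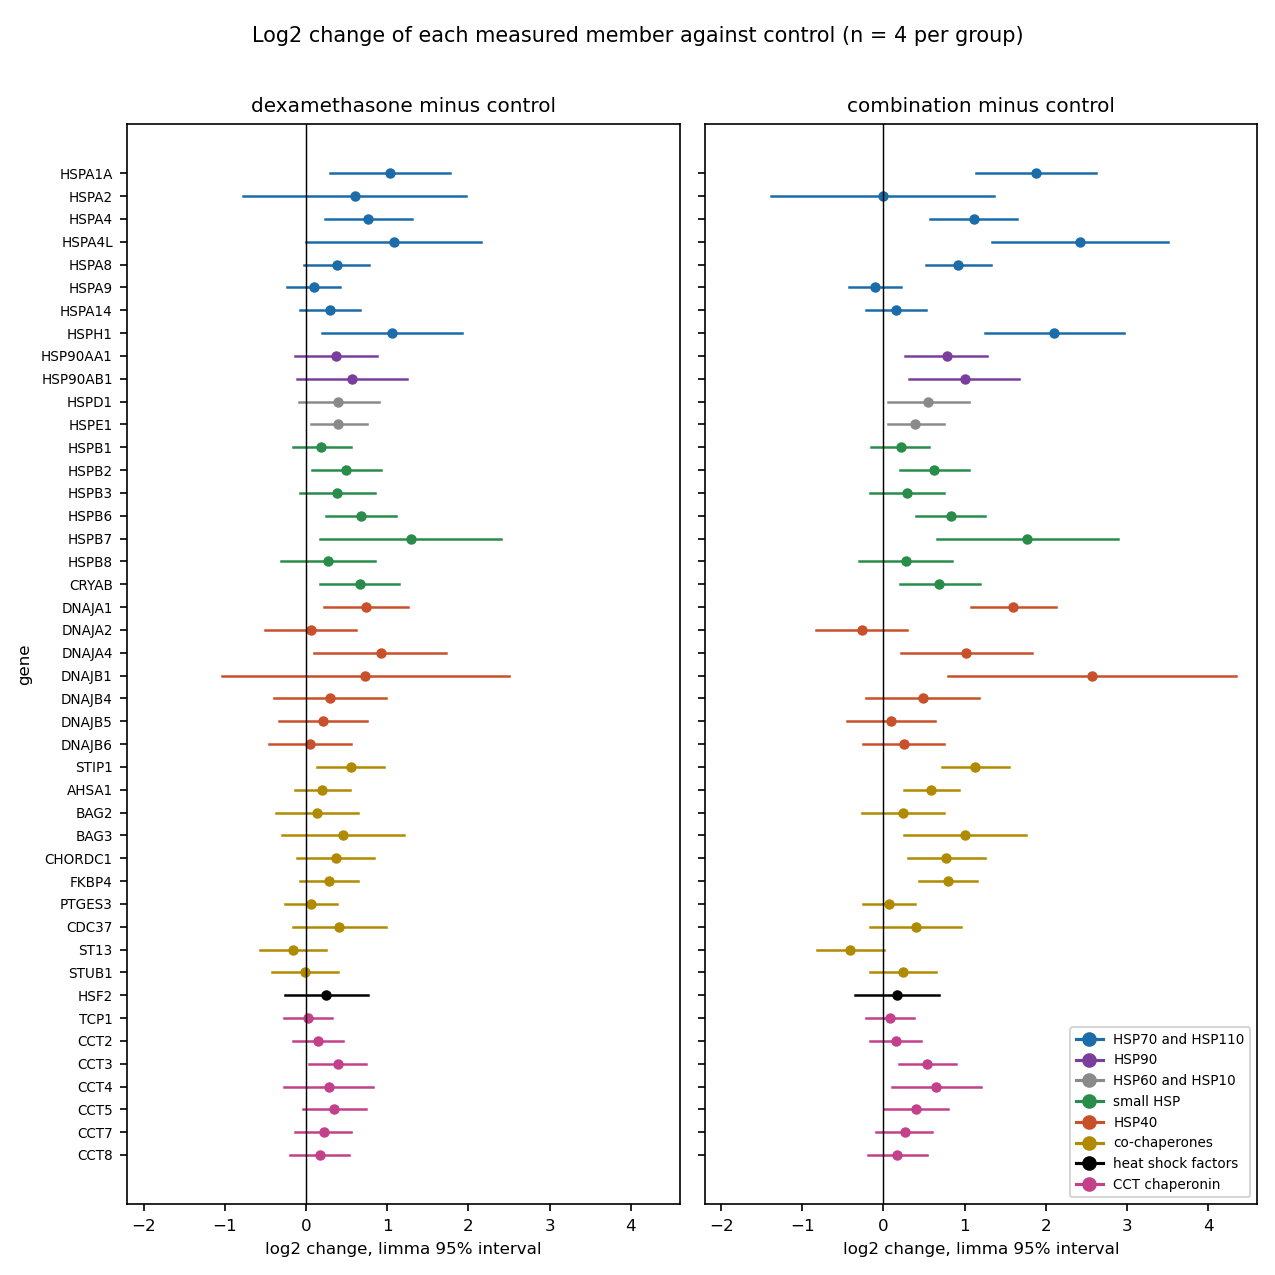
Points are the log2 changes of the 44 measured members against control, with limma 95% intervals, for dexamethasone (left) and the combination (right), coloured by subgroup, with 4 animals per group. Intervals lie wholly above 0 for 12 members on the left and 24 on the right, and wholly below 0 for none.

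HSPD1 and HSPE1, the mitochondrial chaperonin and its lid, lie next to each other in the RefSeq annotation. HSPD1 read 3.66, 3.10, 3.52 and 3.24 in the controls, 3.93, 3.66, 3.80 and 3.76 with dexamethasone, and 3.33, 4.30, 4.36 and 3.74 with the combination, and HSPE1 read 4.61, 4.38, 4.47 and 4.35, then 4.85, 4.87, 5.12 and 4.6, then 4.82, 5.08, 4.92 and 4.57. Both overlapped control in both comparisons. The log2 changes of HSPD1 were 0.40 ± 0.23 and 0.55 ± 0.23, and those of HSPE1 were 0.40 ± 0.16 and 0.39 ± 0.16 (limma adjusted p from 0.318 to 0.508).

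The 7 measured subunits of the cytosolic chaperonin, which folds actin and tubulin, had log2 changes from 0.02 to 0.39 with dexamethasone and from 0.08 to 0.65 with the combination. CCT3 read 3.87, 3.69, 3.79 and 3.88 in the controls, 4.54, 4.09, 4.21 and 3.94 with dexamethasone, and 4.37, 4.59, 4.27 and 4.16 with the combination, with no overlap between control and either treated group. Its log2 changes were 0.39 ± 0.16 with dexamethasone (limma adjusted p = 0.348) and 0.54 ± 0.16 with the combination (limma adjusted p = 0.254). CCT4 had log2 changes of 0.28 ± 0.25 and 0.65 ± 0.25, and its control values, from -0.30 to 0.62, overlapped with the combination, from 0.30 to 1.1. CCT5 ran from -0.15 to 0.08 in the controls, from 0.04 to 0.72 with dexamethasone and from 0.06 to 0.58 with the combination, with log2 changes of 0.35 ± 0.18 and 0.40 ± 0.18. TCP1, CCT2, CCT7 and CCT8 had log2 changes between 0.08 and 0.26 in the combination.

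Of the transcription factors, HSF1, the main activator of heat shock genes, could not be followed, since its probe was well above background on 1 control, 1 dexamethasone and 0 combination arrays. HSF2 read 1.14, 0.93, 1.15 and 0.61 in the controls, 1.40, 0.88, 1.45 and 1.09 with dexamethasone, and 1.52, 1.47, 0.93 and 0.57 with the combination. The 3 groups overlapped, with log2 changes of 0.25 ± 0.24 and 0.17 ± 0.24 (limma adjusted p = 0.728 and 0.81).

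The treated groups were then set against each other. The log2 change of the combination minus dexamethasone was above 0 for 34 of the 44 members, with a median of 0.14, against 52.3% of all genes and a median of 0.02. None of the members was called by limma, where 0.0146% of all genes were called, 2 of 13671. At an unadjusted p under 0.05, 9 members were higher and 0 lower, against 6.69% and 4.32% of all genes. The 9 were HSPA1A, HSPA4L, HSPA8, HSPH1, DNAJA1, DNAJB1, STIP1, AHSA1 and FKBP4, all of them HSP70, HSP110, HSP40 or co-chaperone genes. The values did not overlap for HSPA8 (log2 change 0.55 ± 0.19, limma adjusted p = 0.309) and FKBP4 (0.52 ± 0.16, limma adjusted p = 0.285), and 2.53% of all genes lay likewise above dexamethasone. The smallest limma adjusted p among the members was 0.225, for DNAJA1, with a log2 change of 0.86 ± 0.24 (95% interval 0.34 to 1.38). The 7 small heat shock proteins had log2 changes between -0.09 and 0.48 and the 7 chaperonin subunits between 0.01 and 0.37.

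With both treated groups averaged against control, which uses the same arrays again, limma called 1 member, DNAJA1 (log2 change 1.17 ± 0.21, limma adjusted p = 0.0481), where 0.241% of all genes were called and 0.0293% were called higher. That call too was lost with scan day 2 against the other days as a block (log2 change 1.03 ± 0.23, limma adjusted p = 0.26) and with slide as a random block (1.15 ± 0.22, limma adjusted p = 0.0717). The log2 change was above 0 for 41 of the 44 members, and at an unadjusted p under 0.05, 23 were higher and 0 lower, against 6.80% and 6.21% of all genes. For 5 members (HSPA4, HSPB6, DNAJA1, AHSA1 and CCT3) all 8 treated values lay above all 4 control values, as for 0.658% of all genes.

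Averaged over the 44 members, the deviation from the control mean was -0.08, -0.09, 0.07 and 0.10 in the control arrays, 0.67, 0.20, 0.48 and 0.30 with dexamethasone, and 0.39, 0.88, 0.78 and 0.58 with the combination. All treated arrays stood above all control arrays, and dexamethasone replicate 1 stood above combination replicates 1 and 4. The mean over all genes tested ran from -0.06 to 0.07 over the arrays. Dexamethasone replicate 1 was the highest of its group for 22 of the 44 members, against 24.7% of all genes, and dexamethasone replicate 2 the lowest for 21, against 20% of all genes. In the combination, replicate 2 was the highest for 19 members, against 23.7% of all genes, and replicate 1 the lowest for 21, against 24.7%.

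**Figure D4:**
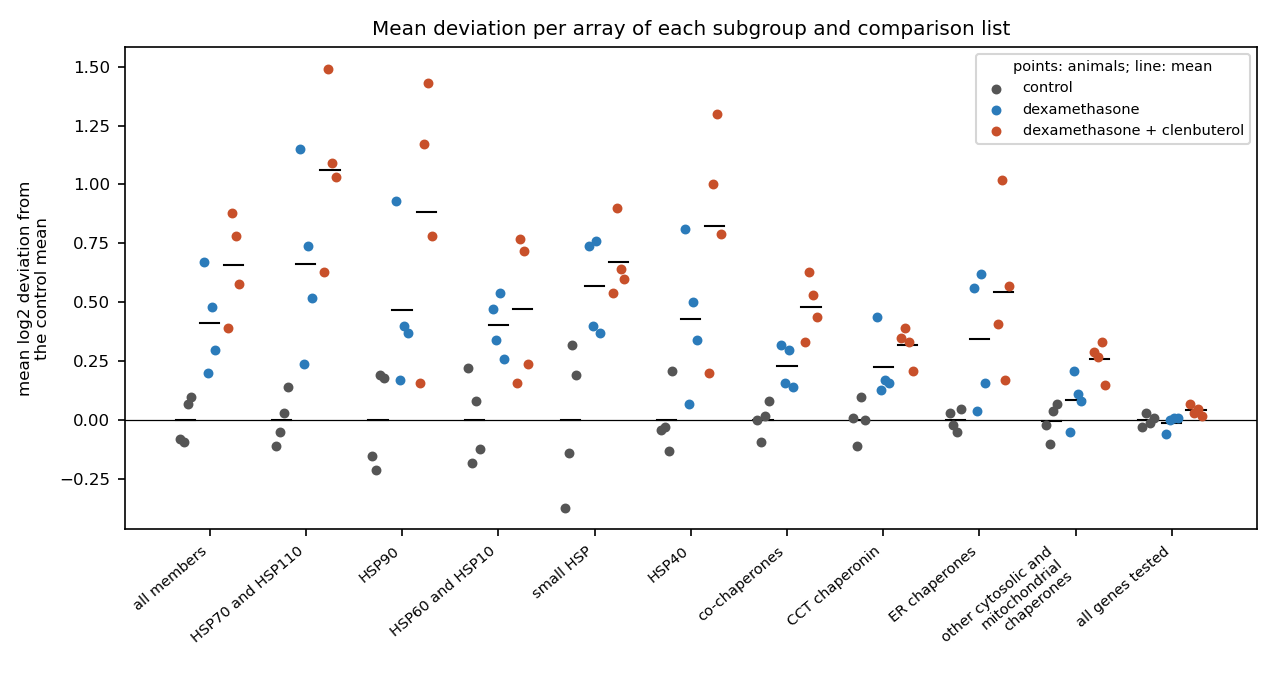
Points are the mean log2 deviation from the control mean per array, for all 44 members, 7 subgroups, 2 further chaperone lists and all genes tested, with a line at each group's mean. For all members, and for the HSP70 and HSP110, small HSP, co-chaperone and CCT subgroups, every treated array is above every control array, and all genes tested stay between -0.06 and 0.07.

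Scan day was examined within days, since it moves with group. Within day 2, 3 dexamethasone arrays against 1 control gave a median log2 difference of 0.30 over the members. Of these, 36 of 44 lay above 0, against 48.9% of all genes and a median of -0.01. The 3 combination arrays against the same control gave 0.54, with 36 of 44 above 0, against 52.6% of all genes and a median of 0.02. Combination against dexamethasone, 3 arrays each, gave 0.12, with 34 of 44 above 0, against 54.1% of all genes and a median of 0.04. The combination arrays of day 2 were on a slide of their own, so slide and group could not be told apart for the combination. Outside day 2, the 3 controls were scanned on day 1 and each treated array on a day of its own. Comparisons there ran across days and slides, and 1 treated array against 3 controls gave 0.27 with dexamethasone and 0.48 with the combination. HSPA1A differed from control by 0.18 with dexamethasone and 1.05 with the combination within day 2, where its control was the high replicate 4. Outside day 2, again across days, it differed by 1.56 and 2.32. With scan day 2 against the other days as a block, no member was called in either comparison with control. The numbers of members higher at an unadjusted p under 0.05 were then 5 with dexamethasone and 20 in the combination, with no share of all genes counted for the scan-day fits. With every scan day as a block they were 2 and 10, in a fit where the comparisons with control rest on the 7 arrays of day 2, of which 1 is a control.

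Markers of other cells in muscle also differed between the groups. Fibroblast markers (DCN, COL3A1 and MFAP5 at the highest signals) had a median log2 change of -1.19 with dexamethasone, with 12 of 12 below 0, and -0.52 with the combination, with 9 of 12 below 0. Leukocyte markers (CSF1R, TYROBP and LCP1 at the highest) had medians of -0.93, with 8 of 10 below 0, and -0.28, with 9 of 10 below 0. Endothelial markers had medians of 0.18 and 0.43, smooth muscle markers 0.16 and 0.38, and adipocyte markers 0.04 and 0.13, with ADIPOQ and LEP not measured. Dexamethasone replicate 1, highest in its group for many members, had a mean deviation of -0.06 for fibroblast and 0.46 for leukocyte markers, while the other arrays of its group ran from -1.95 to -1.06 and from -1.79 to -0.82. For fast fibre and skeletal muscle markers it stood at -1.20 and -0.56, against -0.41 to 0.62 and 0.03 to 0.26 in the others. Dexamethasone replicate 2, lowest in its group for many members, had a mean deviation of 1.84 for adipocyte markers, against -0.65 to -0.16 in the others. Of 11 slow fibre markers (TNNC1, MYL2 and MYH7 at the highest), 10 lay above 0 with dexamethasone and 9 with the combination, with medians of 0.71 and 0.26. TNNC1, MYL2 and MYH7 themselves changed little, by 0.16, 0.03 and 0.23 with dexamethasone and by -0.10, -0.09 and 0.11 with the combination. The larger changes were in dimmer markers. The mean deviation of the slow fibre list ran from -0.50 to 0.87 in the controls, from 0.04 to 1.41 with dexamethasone and from 0.30 to 1.32 with the combination. Fast fibre markers had medians of -0.23 and -0.05. The part of cell or fibre makeup in the chaperone values was not tested, and in bulk muscle fewer cells of a type and less RNA per cell cannot be told apart.

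Chaperones outside the set were followed in 2 further lists. Of 49 other cytosolic and mitochondrial chaperones and partners, 47 were measured, and their medians were 0.13 in both comparisons with control. Limma called 1 of them lower with dexamethasone, against 0.585% of all genes, namely FKBP5, an HSP90 immunophilin induced by glucocorticoids. In the combination limma called 0, against 0.0439% of all genes. At an unadjusted p under 0.05, 5 were higher and 0 lower, against 6.97% and 5.15% of all genes. Among the 5 were HSPA6 and HSPA1L, which passed the filter on dim probes through treated arrays, so the count carries that limit. FKBP5 read 3.35, 2.99, 3.80 and 4.16 in the controls, 0.55, 0.25, -0.01 and 1.19 with dexamethasone, and 4.66, 1.26, 2.31 and 3.26 with the combination. It fell with dexamethasone (log2 change -3.08 ± 0.58, limma adjusted p = 0.0391), while FKBP4, its close relative, had a log2 change of 0.28 ± 0.16. With scan day 2 against the other days as a block, calls over all genes in this comparison went from 84 to 13. Whether the FKBP5 call was kept was not followed under that or the other alternatives.

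HSPA6, an inducible HSP70 best known from humans, read -6.22, -7.56, -8.11 and -6.22 in the controls, -2.94, -6.56, -5.96 and -2.37 with dexamethasone, and -4.46, -1.15, 1.74 and -0.69 with the combination. It was well above background on 0 of 4 control, 2 of 4 dexamethasone and 4 of 4 combination arrays, so that it passed the filter through the treated arrays. By group means, the lower bound on its fold over control in the combination was 35.8, and 18.4 without combination replicate 3. The fit, which took the dim control values as read, gave a log2 change of 5.89 ± 1.22 (limma adjusted p = 0.141), so HSPA6 was not called. For HSPA1L, an HSP70 gene close to HSPA1A, the combination gave 1.65 ± 0.32 on the log2 scale (limma adjusted p = 0.123), at a low signal. It was well above background on 1 of 4 control, 1 of 4 dexamethasone and 4 of 4 combination arrays, so it passed the filter through the combination arrays. SMYD1, a muscle methyltransferase that acts on myosin with HSP90, differed from control by 0.68 ± 0.18 on the log2 scale (limma adjusted p = 0.215). With dexamethasone, HSPA12A had a log2 change of -0.89 ± 0.28 and DNAJC15, of the mitochondrial inner membrane, of 0.54 ± 0.20 (limma adjusted p = 0.215 and 0.297).

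The 19 chaperones and partners of the endoplasmic reticulum, all measured, had medians of 0.43 with dexamethasone and 0.54 with the combination. Of these, 0 were called in either. At an unadjusted p under 0.05, 13 were higher in the combination and 0 lower, against 6.97% and 5.15% of all genes, and 9 lay wholly above control, against 4.51%. With dexamethasone 5 were higher and 1 lower, against 5.46% and 6.88% of all genes, and 6 lay wholly above control, against 2.52%. MANF, a secreted reticulum stress protein, had log2 changes of 0.69 ± 0.23 with dexamethasone and 0.94 ± 0.23 with the combination (limma adjusted p = 0.237 and 0.186). HSP90B1 (GRP94), the HSP90 of the reticulum, had log2 changes of 0.92 ± 0.35 and 1.24 ± 0.35, DNAJB11, an HSP40 of the reticulum, of 0.60 ± 0.28 and 1.03 ± 0.28, and P4HB, protein disulfide isomerase, of 0.51 ± 0.20 with dexamethasone. Averaged per array, the reticulum list was highest in combination replicate 2 (1.02), dexamethasone replicate 3 (0.62) and combination replicate 4 (0.57). Combination replicate 3 (0.17) was the lowest of its group for the reticulum list. Its mean over the HSP40 genes, 1.30, was the highest of the group, but rests largely on DNAJB1. DNAJB1 read 5.70 in that array and 1.45, 2.65 and 3.28 in the others of the group. The HSP40 mean without DNAJB1 was not computed.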

How the data were processed

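The authors deposited scanner files of 12 arrays, with linear spot intensity from Agilent Feature Extraction 9.5.1.1, which removed spatial and multiplicative trends per the file headers, and a value table of linear intensity, of which the sources used here state no steps. That table ranked spots as the scanner signal did (Spearman correlation at least 0.9999955), its medians per array ran from 137.25 to 181.167, and 3901 to 6574 values per array were blank. It served as an alternative, and its fit leaves out blank values. Scale and direction follow from the scanner signal, centring stays unknown.

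The log2 of the deposited processed signal was taken less the 75th percentile that the non-control spots of that array had. Outlier spots, 1 to 7 per array, were left out, saturated spots were kept, and spots of a probe were averaged. A probe was kept if 4 or more of the 12 arrays showed it well above background (14702 of 21475), and for 935 genes with several probes the one of highest mean was used, which left 13671 genes. Names were updated through a RefSeq table (ARS-UCD2.0; for names and neighbours only) by gene number (10032 probes), accession (3412), symbol (385) or human match (2844), and 4802 kept the file's name. Of the measured members, the probes used for HSPA1A, HSP90AB1, HSPD1 and BAG3 were named through the human match. No coordinates or sequences are given.

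Comparisons used limma 3.58.1 under R 4.3.3, by lmFit over 12 arrays with 3 group means and eBayes. P-values are two-sided and adjusted by Benjamini-Hochberg over all genes of a contrast, and calls were made where the adjusted value was under 0.05. The script was tested on simulated data. A fold given as a lower bound replaced each dim value by that array's lowest signal of any well-measured probe, where this was higher. Members and lists were chosen with earlier results of these data known. Per-array values are given for called members, for the 2 members of largest change per subgroup and for 11 fixed genes. Of the 2 chaperone lists, called genes and the 3 of smallest p per comparison with control are named, and of the marker lists, up to 3 of highest control signal. Alternatives covered background correction, normalization, filter, probe choice, batch, groups fitted and leaving out arrays.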

Additional observations from a re-analysis of the deposited data

Results flagged for a closer look

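In groups of 4 arrays, a sample was taken as standing apart when its gap to the nearest other value divided by the group's range exceeded Dixon's 95% critical value. Over the members named with per-array values and the subgroup means, 3 of 87 groups held such a sample, where chance gives about 1 in 20 (4.3). HSPA1A was high in control replicate 4, at 7.15 against 6.07 to 6.17 in the other controls. HSPB1 was low in control replicate 1, at 8.15 against 8.42 to 8.46. The mean deviation of the chaperonin subunits was high in dexamethasone replicate 1, at 0.44 against 0.13 to 0.17 in the rest of its group.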

How the results depend on the processing

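The medians kept their sign under all 22 alternatives, from 0.27 to 0.40 for dexamethasone against control, 0.39 to 0.57 for the combination against control and 0.05 to 0.21 for the combination against dexamethasone. The log2 changes against control of the 21 measured members that the naming rule took kept their sign. Of the others, with dexamethasone and scan day 2 against other days as a block, ST13 went from -0.16 to 0.01 and DNAJB6 from 0.05 to -0.01. With every scan day as a block the members above 0 went from 42 to 37 with dexamethasone and from 40 to 36 in the combination. With no filter on dim probes, the median of all genes was itself 0.14 with dexamethasone and 0.11 with the combination. In the combination against control the 1 call became 2 with normexp background, and 0 with quantile normalization, the authors' value table, no filter, the filter on all 12 arrays, the mean of all probes, either scan-day block, slide as a random block, or only the groups compared. Leaving out 1 array gave 0 to 4 calls. The 4 came without dexamethasone replicate 1, which enters only through the shared estimate of spread, and were DNAJA1, HSPA4L (adjusted p = 0.0446), HSPH1 (0.0319) and STIP1 (0.045). Of all 13671 genes, 6 were called in the main fit, 6 with normexp background and 11 without dexamethasone replicate 1. The cause of the other changes was not tested. For both treated groups against control the 1 call became 3 with normexp background and 0 with quantile normalization, the value table, no filter, either scan-day block or slide as a random block, and 0 to 3 with 1 array left out (3 without dexamethasone replicate 1, 2 without combination replicate 1 or 4). Calls over all genes rose in those same fits, from 33 to 44 with normexp background and to 106 without dexamethasone replicate 1. They were 50 and 65 without combination replicates 1 and 4. DNAJA1 kept log2 changes of 1.38 to 1.77 in the combination, with adjusted p from 0.0247 to 0.447. The 12 members higher at an unadjusted p under 0.05 with dexamethasone became 5 with scan day 2 against other days as a block and 2 with every scan day as a block, and the 24 in the combination became 10 with every scan day as a block. Leaving out 1 array gave 8 to 16 and 19 to 24. The share of all genes at that threshold was not counted under the alternatives. DNAJB1 ran from 1.76 to 3.18, HSPA4L from 0.86 (normexp) to 3.30 (scan days as blocks) and HSPA1A from 1.05 (scan days as blocks) to 2.74 (mean of all probes). No member was called for dexamethasone against control or the combination against dexamethasone under any alternative run. No paired analysis applies, since the groups held different animals. The labels give no replicate numbers, so those used here only name the animals. Signals near background (HSPA4L, HSF1, HSPA6) limit the size of a change.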
